A study of Rattus norvegicus with 15 samples.

Results

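The immunoproteasome and class I antigen processing genes were followed in bulk tissue of the ventral tegmental area (VTA), whose dopamine neurons project to the forebrain. The 10 genes are Psmb8, Psmb9, Psmb10, Psme1, Psme2, Tap1, Tap2, Tapbp, B2m and Irf1, and 13 of the 31042 probe sets other than controls on the array carried 1 of these symbols and no other. The genes were chosen from earlier results on these same arrays, in which the log2 values of ethanol and water rats had been compared, so the ethanol minus water values below describe the genes and carry no test. Arrays came from 7 ethanol-drinking rats (numbers 1, 2 and 4 to 8) and 8 age-matched water-drinking rats (numbers 1 to 8), with 1 array per rat. Ethanol rat 3 was not analysed here. The series title names alcohol-preferring (P) rats and loss-of-control drinking, a rat line bred for voluntary intake, while its design text mentions rats of high-intake and low-intake lines, so the line is known only from the title. The sources used here do not give ages, sex, litters or the time since the last drink.

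Cells cut intracellular proteins into peptides with the proteasome and show some of them at the surface on class I molecules. Interferons make cells swap the catalytic subunits of the standard 20S core for inducible ones, Psmb8, Psmb9 and Psmb10, which gives the immunoproteasome. Psme1 and Psme2 form the PA28 cap that opens the core, Tap1 and Tap2 carry peptides into the endoplasmic reticulum, tapasin (Tapbp) holds empty class I molecules at that transporter, and beta-2-microglobulin (B2m) is the light chain of every class I molecule. Irf1 is a transcription factor that interferon gamma induces and that activates several of these genes. In the brain, microglia and endothelial cells express class I molecules at higher levels than most neurons do.

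Most of the genes share a feature of sequence. The motifs were chosen after the expression values were seen, and interferons act on several of these genes. The shares below therefore describe the windows and carry no test. All 10 had an entry in the RefSeq promoter table of the GRCr8 assembly, which spans 250 bases before to 50 bases after the annotated start. Both strands were searched for 4 motifs. The core of the interferon-stimulated response element (ISRE), GAAANNGAAA, was present in 7 of the 10 windows, in 1312 of all 33469 windows (3.92%) and in 2 of the 14 windows found for the constitutive 20S core genes. Of the 45 windows found for a list of interferon-induced genes, 27 held it. The gamma-activated site, TTCNNNGAA, was present in 2 of the 10 windows (Irf1 and Psmb8) and in 8.87% of all windows, and the kappaB-type motif GGGNNTTTCC in 3 (Tap1, Tapbp and B2m) and in 1.53%. The cyclic AMP response element TGACGTCA was present in 0 of the 10 and in 1.83%. A match describes letters and not a bound site. The windows around the matches are shown because most of these promoters hold the motif, with the ISRE core in capitals and, for Irf1, the gamma-activated site in capitals, each read along the gene's own strand, 5′ to 3′.

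Psmb8: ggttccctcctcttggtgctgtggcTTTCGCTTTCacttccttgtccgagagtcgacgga
Psmb10: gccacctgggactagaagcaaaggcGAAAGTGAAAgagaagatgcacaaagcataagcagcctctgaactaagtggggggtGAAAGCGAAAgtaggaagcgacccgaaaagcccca
Psme2: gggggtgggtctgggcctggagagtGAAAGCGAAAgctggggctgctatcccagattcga
Tap1: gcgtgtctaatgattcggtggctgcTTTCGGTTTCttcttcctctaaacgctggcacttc
Tap2: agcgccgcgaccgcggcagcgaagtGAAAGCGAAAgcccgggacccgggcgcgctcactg
Tapbp: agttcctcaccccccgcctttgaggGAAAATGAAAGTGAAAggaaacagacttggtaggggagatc
B2m: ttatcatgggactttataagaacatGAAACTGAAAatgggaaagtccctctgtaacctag
Irf1: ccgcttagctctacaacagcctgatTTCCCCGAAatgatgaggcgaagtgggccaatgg

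In GRCr8 these windows lie at chr20:4657001-4657060 (Psmb8), chr19:50743275-50743390 (Psmb10), chr15:33052770-33052829 (Psme2), chr20:4668630-4668689 (Tap1), chr20:4652303-4652362 (Tap2) and chr20:4967863-4967928 (Tapbp), all on the minus strand, and at chr3:129549155-129549214 (B2m) and chr10:38417768-38417826 (Irf1) on the plus strand. Tapbp held overlapping ISRE cores that share GAAA, and Psmb10 held a pair of separate ones. The Psmb8 match runs across the annotated start, from base -4 to base 6. The B2m ISRE core (bases -150 to -141) and its kappaB-type motif (-137 to -128) lie next to each other without overlap. Tap2, Psmb8, Tap1 and Psmb9 are consecutive genes on chromosome 20, and Tap1 and Psmb9 run in opposite directions from starts with 456 bases between them, so that the ISRE core in the Tap1 window lies between both starts. The windows of Psmb9, Psme1 and Irf1 held no ISRE core, which says only that these letters are not in these 300 bases.

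**Figure D1:**
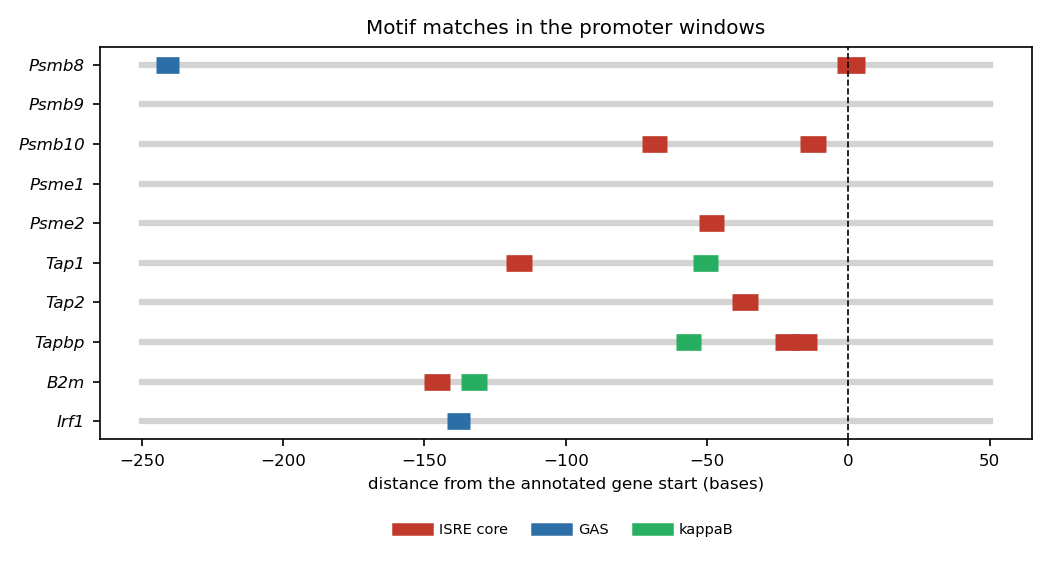
Positions of motif matches in the promoter window of each gene, in bases from the annotated gene start (dashed line). Grey bars are the windows, coloured blocks the ISRE core, the gamma-activated site (GAS) and the kappaB-type motif; 7 of the 10 windows hold an ISRE core, and those of Psmb9 and Psme1 hold no match.

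Of the 13 probe sets, 10 passed a filter on dim signal (a mean over all 15 arrays at or above the 40th percentile, a log2 value of 6.94), and they stand for 9 genes. Both Tap1 probe sets and the dimmer of 2 Psme1 probe sets lay below it. Values are log2 units made by the authors with RMA, on which 1 unit is a doubling, and levels of different probe sets cannot be compared. Among the 10 tested probe sets 9 had a higher mean in ethanol rats and 1, that of Psmb10, a lower one, while 53.3% of all 18625 tested probe sets had a higher mean in ethanol rats. The median difference of the 10 was 0.19 log2 units, against 0.0062 over all tested probe sets. In the limma fit over the array 3 of the 10 were called, all higher in ethanol rats (Psmb9, Psme1 and Irf1), where 0.929% of all tested probe sets were called in either direction and 0.387% as higher. In 0 of the 10 did the groups fall completely apart, as they did in 0.623% of all tested probe sets. Since the same contrast chose the genes, nothing is read from these counts. The count of calls also changed whichever 1 array was left out. Leaving out ethanol rat 1, 2, 7 or 8 gave 0 calls, as did leaving out water rat 2, 3 or 7. There was 1 call when ethanol rat 5 or 6 was left out, likewise for water rat 1, 5, 6 and 8, and there were 2 calls without ethanol rat 4 and 4 without water rat 4.

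**Figure D2:**
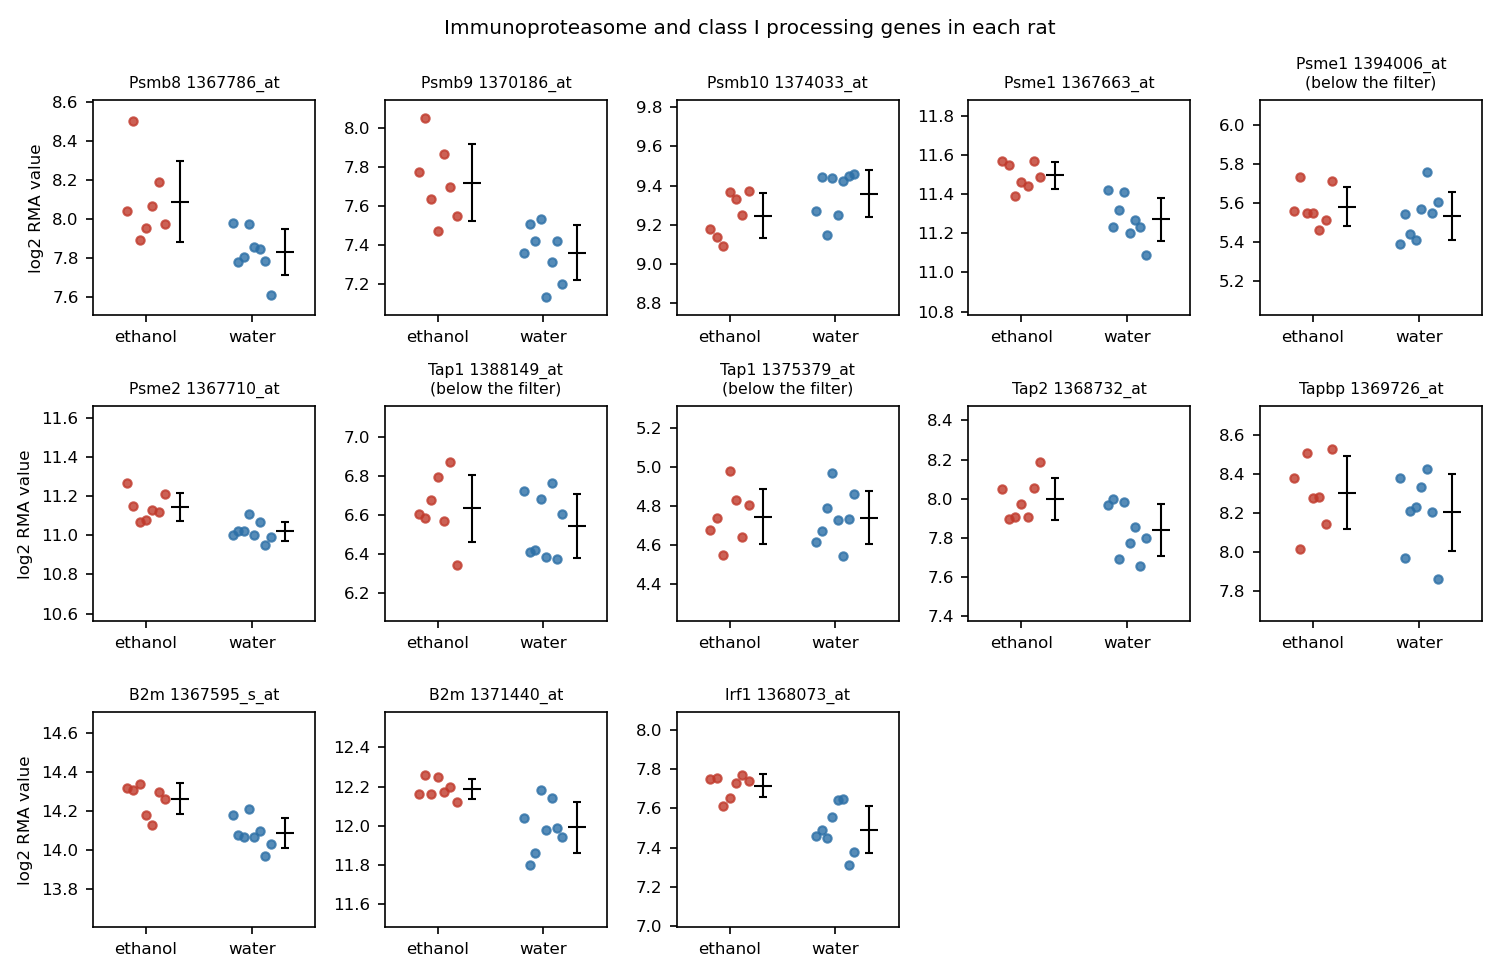
Log2 RMA values of the 13 probe sets in each rat, ethanol left and water right, with the mean and SD beside the points; every panel spans the same 1.1 log2 units. In Psmb9, Psme1 and Irf1, 6 of the 7 ethanol rats lie above the highest water rat, and the 3 probe sets below the filter show overlapping groups.

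The inducible catalytic subunits differed in direction, with Psmb8 and Psmb9 higher and Psmb10 lower on average in ethanol rats. Psmb9, which replaces the constitutive subunit Psmb6, had 7.47, 7.70 and 8.05 log2 units as the lowest, median and highest value in ethanol rats, against 7.13, 7.39 and 7.53 in water rats. All but ethanol rat 5 lay above every water rat, and ethanol rat 2 was highest. The means were 7.72 ± 0.20 with ethanol (SD, n = 7) and 7.36 ± 0.14 with water (SD, n = 8), a difference of 0.36 (SE 0.08) or 1.28-fold, and 0.306% of tested probe sets had a larger positive one. Its call was present in 2 of the 15 single-array omissions (fits with each array left out in turn), while the difference stayed between 0.30 and 0.40 in all 15.

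Psmb8, which replaces Psmb5, had 7.89, 8.04 and 8.50 log2 units as the lowest, median and highest value in ethanol rats, against 7.61, 7.82 and 7.98 in water rats. Again ethanol rat 2 was highest, and 4 of 7 ethanol rats lay above every water rat. The difference was 0.26 (SE 0.08), or 1.20-fold, and was 0.19 without ethanol rat 2, the lowest value among the 15 single-array omissions. Psmb10, which replaces Psmb7, ran the other way. It had 9.09, 9.25 and 9.37 log2 units in ethanol rats and 9.14, 9.43 and 9.46 in water rats as the lowest, median and highest value, a difference of -0.11 (SE 0.06), and the highest ethanol rat stayed below the water median.

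Of the constitutive subunits that these replace, Psmb5 had 13.22 ± 0.04 log2 units with ethanol (SD, n = 7) and 13.21 ± 0.06 with water (SD, n = 8), and Psmb7 had 11.65 ± 0.10 with ethanol (SD, n = 7) and 11.67 ± 0.12 with water (SD, n = 8). Their differences were 0.0058 and -0.012 (limma adjusted p = 0.959 and 0.949). Both were named after their values were seen, and no probe set carrying the symbol Psmb6 alone was used here. None of the 13 tested probe sets of the constitutive 20S core was called or reached an unadjusted p below 0.05 in the limma fit, as 12.1% of all tested probe sets did (2252 of 18625), and their differences ran from -0.045 to 0.043 log2 units. None of the 10 probe sets for other activators, the inhibitor Psmf1 and the assembly chaperones was called or reached an unadjusted p below 0.05 in that fit either, with a range from -0.025 to 0.042.

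Of the PA28 cap, Psme1 had 11.39, 11.49 and 11.57 log2 units as the lowest, median and highest value in ethanol rats, against 11.09, 11.25 and 11.42 in water rats. Only ethanol rat 4 lay within the water range, below water rats 1 and 4. The mean difference was 0.22 (SE 0.05), or 1.17-fold, and its call was present in 4 of the 15 single-array omissions. The second Psme1 probe set was below the filter and had 5.58 ± 0.10 with ethanol (SD, n = 7) and 5.54 ± 0.12 with water (SD, n = 8). Psme2, the other PA28 subunit, had 11.07, 11.13 and 11.27 log2 units in ethanol rats and 10.95, 11.01 and 11.11 in water rats, and 5 of 7 ethanol rats exceeded every water rat. Its difference was small, 0.13 (SE 0.04), in a probe set whose spread within groups was among the narrow ones (SD 0.06, with 90.0% of tested probe sets wider).

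Of the peptide transporter subunits only Tap2 had a tested probe set. Tap2 had 7.89, 7.97 and 8.19 log2 units as the lowest, median and highest value in ethanol rats and 7.66, 7.82 and 7.999 in water rats. The groups overlapped, with 3 of 7 ethanol rats above every water rat, and the difference was 0.16 (SE 0.06). The brighter Tap1 probe set had 6.34, 6.60 and 6.87 log2 units in ethanol rats and 6.38, 6.51 and 6.76 in water rats, a difference of 0.089 (SE 0.08) in a fit with no filter. The dimmer one, at 4.75 ± 0.14 with ethanol (SD, n = 7) and 4.74 ± 0.13 with water (SD, n = 8), was dimmer still. Tapbp, the tapasin gene, had 8.02, 8.28 and 8.53 log2 units in ethanol rats and 7.86, 8.22 and 8.42 in water rats, and its difference of 0.10 (SE 0.09) was about as large as its error. It had the widest spread within groups of the 10 tested probe sets (SD 0.19).

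B2m was measured by 2 tested probe sets, both higher on average in ethanol rats. The brighter one had 14.13, 14.30 and 14.34 log2 units as the lowest, median and highest value in ethanol rats, against 13.97, 14.08 and 14.21 in water rats, a difference of 0.18 (SE 0.04). The dimmer one had 12.12, 12.17 and 12.26 in ethanol rats, against 11.80, 11.98 and 12.18 in water rats, a difference of 0.20 (SE 0.05). In each, 6 of 8 water rats lay below the lowest ethanol rat, and water rat 4 was the highest water rat. Once group means were removed the probe sets of this one gene followed each other only loosely over the 15 arrays (Pearson r = 0.339, given without a test).

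Irf1, the regulator among the 10, had 7.61, 7.74 and 7.77 log2 units as the lowest, median and highest value in ethanol rats, against 7.31, 7.47 and 7.65 in water rats. Ethanol rats were narrowly spread (SD 0.06) and water rats more widely (SD 0.12), and 6 of 7 ethanol rats exceeded every water rat. The difference was 0.22 (SE 0.05), or 1.17-fold, and its call was present in 3 of the 15 single-array omissions. Water rats 7 and 8, whose arrays were among those least correlated with the rest, held the lowest water value of 7 of the 10 tested probe sets. With both left out, which was decided once the values had been seen, 0 of the 10 were called, every difference kept its sign, Irf1 was at 0.17, Psme1 at 0.19, Psmb9 at 0.34 and Tapbp at 0.046.

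Markers of microglia, the resident immune cells of the brain, mostly had higher means in ethanol rats (20 of 21 tested probe sets). Of 21 tested probe sets for 18 microglia markers, 8 rose by limma over the whole array and 0 fell, at a median of 0.30 log2 units. The count was 5 when water rat 1, 3 or 7 or any one of ethanol rats 2 and 4 to 8 was left out, 10 without water rat 5, and 4 with both water rats 7 and 8 left out. Ptprc, Ctss and Laptm5 lost their calls in 13, 12 and 10 of the 15 omissions, and Gpr34, Fcer1g, Tyrobp and both Trem2 probe sets in 0. The array mean of the list ran from 9.37 to 9.62 in ethanol rats and from 9.02 to 9.44 in water rats. That list is higher in earlier results on these arrays and so is no independent evidence. With its array mean as a covariate, the difference of Irf1 was 0.071, that of Psmb8 0.11, of Tap2 0.063, of Psme1 0.17 and of B2m 0.10 and 0.15, Tapbp turned to -0.087, and 0 of the 10 probe sets were called. The difference of Psmb9 was 0.41 with the covariate and 0.36 without it, yet its call was lost. The list mean was itself mostly higher in ethanol rats, so the covariate carries part of the group difference. A call lost in this fit therefore need not mean a smaller difference. In bulk tissue, more cells of a type and more RNA per cell cannot be told apart, and the part of microglia in these differences was not tested.

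**Figure D3:**
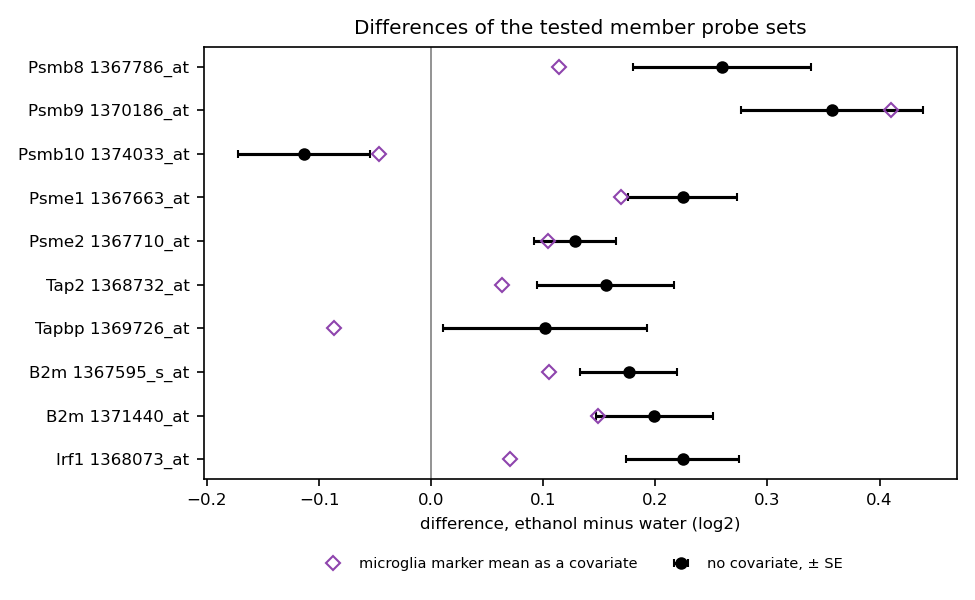
Ethanol minus water difference of the 10 tested probe sets in log2 units, as black points with the SE from the fit without a covariate and as open diamonds with the array mean of the microglia markers as a covariate. Psmb9 is at 0.36 and 0.41, whereas Irf1 is at 0.22 and 0.071 and Tapbp changes sign.

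Other cell types were read from marker lists. None of the 23 tested probe sets of endothelial and mural markers was called or reached an unadjusted p below 0.05 in the limma fit, with a median of -0.015. Of 17 lymphocyte markers on the array only Lck, a T cell kinase, passed the filter on dim signal, and its difference of 0.21 was not called (limma adjusted p = 0.123). In the oligodendrocyte list 4 of 19 tested probe sets were called lower and 0 higher (median -0.19). The largest fall was that of Ugt8, which makes a myelin lipid (log2 -0.69, limma adjusted p = 0.00413). A higher mean in ethanol rats was found for 3 of the 19. At an unadjusted p below 0.05 in the limma fit 11 were lower and 1 was higher, that of Opalin (log2 0.20, SE 0.08). The number of calls in that list was 1 without ethanol rat 7, was 2 when ethanol rat 1, 5, 6 or 8 was left out and likewise for water rats 1, 3, 6 and 7, and was 11 with the microglia covariate, while the call of Ugt8 was lost in 0 of the 15 omissions. No astrocyte (12) or neuron (22) probe set was called by limma, and at an unadjusted p below 0.05 there were 2 and 0. The dopamine enzyme Th had 14.94 ± 0.22 with ethanol (SD, n = 7) and 14.80 ± 0.26 with water (SD, n = 8).

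Lists for the rest of the class I and interferon pathway were read beside the 0.929% of all tested probe sets that were called in either direction. The list of class I molecules had 11 tested probe sets, 10 named for genes of the rat RT1 complex and 1 for Fcgrt, the neonatal Fc receptor. RT1 genes are a multigene family whose probes can bind several members, so single names among them are uncertain. None of the 11 was called by limma and 1 reached an unadjusted p below 0.05, that named RT1-CE12 (log2 0.18, SE 0.05, adjusted p = 0.172). For trimming and loading factors 0 of 20 were called and 1 had an unadjusted p below 0.05, the cytosolic peptidase Tpp2 (log2 -0.11, SE 0.04, adjusted p = 0.187). The loading chaperones Calr (log2 0.046) and Pdia3 (0.056 and -0.030) and the trimming peptidase Erap1 (0.036 and 0.0088), named after their values were seen, were not called.

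Among interferon signalling genes 1 of 31 tested probe sets was called, where 0.387% of all tested probe sets were called as higher. It belonged to Irf8, a factor of myeloid cells, at 7.20 ± 0.18 (SD, n = 7) log2 units in ethanol rats, against 6.83 ± 0.16 (SD, n = 8) in water rats (log2 0.37, SE 0.08, limma adjusted p = 0.0417). The water mean of Irf8 lay below the filter value of 6.94, so it entered the fit only through its ethanol values. Irf5, another myeloid factor, was at 0.23 (adjusted p = 0.0799). Of the interferon-induced genes 1 of 30 tested probe sets was called, Lgals3bp, a secreted galectin ligand (log2 0.34, SE 0.08, limma adjusted p = 0.0455). Each of these calls held in 3 of the 15 single-array omissions. With no filter on dim signal both lists had 0 calls. The filter at the 60th percentile cannot speak to these calls, since Irf8 and Lgals3bp lay below it and were not tested there. The median difference was 0.025 for the signalling list and 0.041 for the induced list, against 0.0062 over all tested probe sets. An unadjusted p below 0.05 was reached by 4 of 30 in the induced list, all higher, while the 12.1% of the whole array counts both directions. Among the 4 were Sp110 (log2 0.18, limma adjusted p = 0.307) and Ifi35 (0.14, limma adjusted p = 0.321). A higher mean in ethanol rats was found for 25 of 30 in the induced list and 18 of 31 in the signalling list. Over all tested probe sets the share was 53.3%, and these shares are given without a test.

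**Figure D4:**
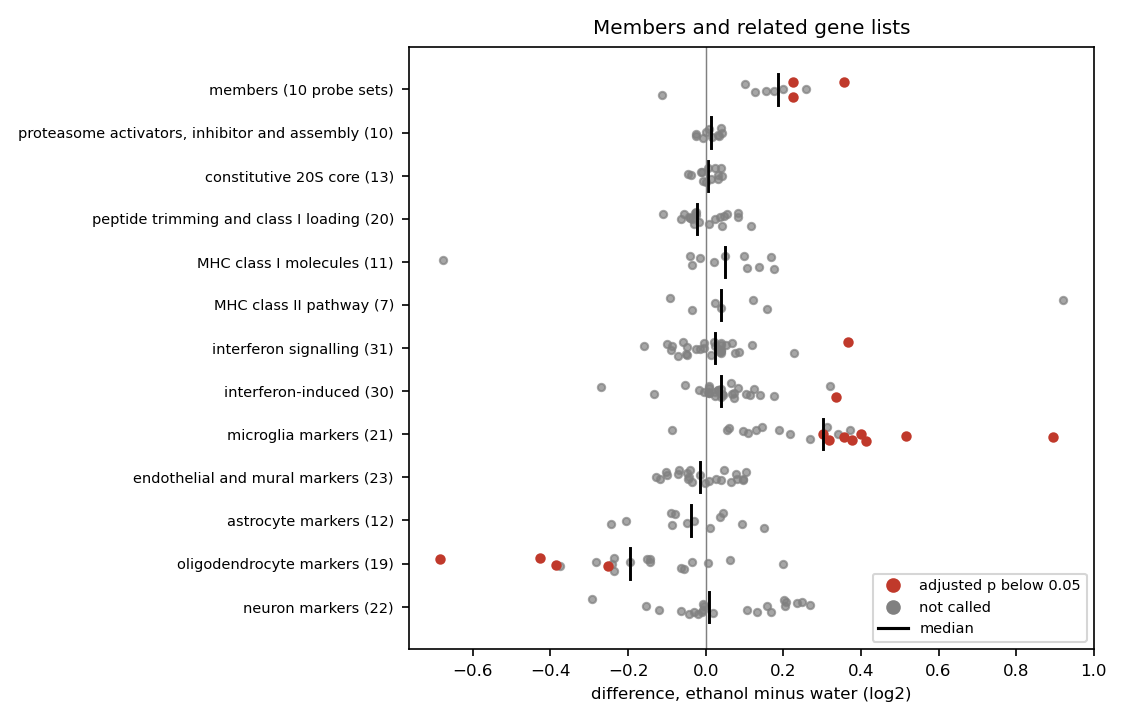
Ethanol minus water differences, in log2 units, of every tested probe set of the 10 genes (top row) and of 12 related lists, with called probe sets in red and the median as a black bar. The 13 constitutive 20S core probe sets lie between -0.045 and 0.043, and the microglia markers have a median of 0.30.

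Whether the genes vary together from rat to rat was asked after removing each group's mean, so that the contrast that chose them plays no part. Each gene was represented by its tested probe set with the highest mean. Of 18 pairs planned, 4 involved Tap1 and had no value. Of the other 14, none passed a permutation test of Pearson's r after Benjamini-Hochberg adjustment over the 14, with 3 at an unadjusted p below 0.05, and 12 of the 14 were positive. Psmb8 and Psmb9, which flank Tap1 on chromosome 20, had r = 0.662 (Spearman's rho = 0.495, permutation p = 0.0161 and 0.0715, adjusted p = 0.112 and 0.250), but r was 0.273 without the 2 arrays farthest from the median of Psmb8, so the relation rests on those arrays. With the microglia marker mean also removed r was 0.793 and passed (permutation p = 0.00179, adjusted p = 0.0251). That adjustment covers the 14 pairs of this setting alone, and r without the 2 farthest arrays was not computed for it. Psme1 and Psme2, the partners in PA28, had r = 0.516 (rho = 0.557, permutation p = 0.0402 and 0.0342, adjusted p = 0.181 and 0.160), and 0.674 without the 2 farthest arrays.

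Irf1 was paired with each of the 8 other genes that had a value. Its r was highest with Psme2 (r = 0.567, rho = 0.607, permutation p = 0.0146 and 0.0154, adjusted p = 0.112 and 0.108, and r = 0.438 without the 2 farthest arrays). With Psmb8 r was 0.443 and rho 0.629 (permutation p = 0.0518 and 0.0123, adjusted p = 0.181 and 0.108), and r was 0.345 with B2m and 0.045 with Psmb9. Over all 36 pairs of the 9 genes the median r was 0.237, and the extremes were 0.685 for Psmb8 with Psme1 and -0.431 for Psmb10 with B2m, both given without a test. Psmb10 had a negative r with 6 of the 8 other genes, and its highest was 0.360 with Tap2.

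**Figure D5:**
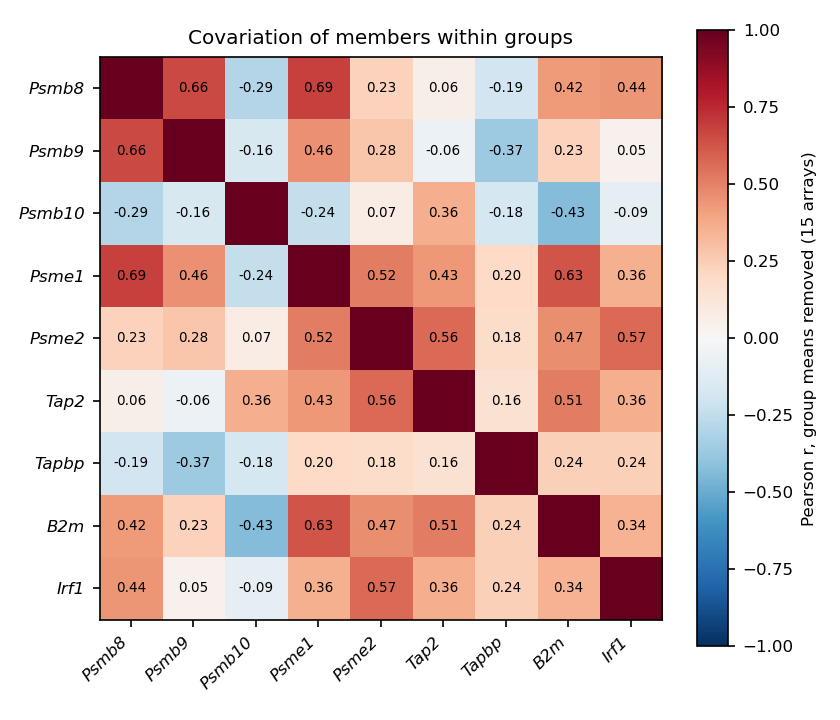
Pearson correlation, over 15 arrays and after removal of group means, between the 9 genes with a tested probe set. Psmb8, Psmb9 and Psme1 are positive with each other, from 0.457 to 0.685, as are Psme1, Psme2, Tap2 and B2m, from 0.432 to 0.626. Psmb10 and Tapbp are negative against both Psmb8 and Psmb9. These groupings were picked after the values were seen and carry no test.

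Each of the 9 genes was also set against the array means of the microglia, endothelial and interferon-induced lists, again without group means. None of these 27 relations passed after adjustment, and 1 had an unadjusted p below 0.05 for r. That was Irf1 with the microglia markers (r = 0.722, rho = 0.646, permutation p = 0.00829 and 0.0191, adjusted p = 0.224 and 0.516), with r = 0.572 without the 2 farthest arrays. Tapbp reached it for rho alone (rho = 0.539, permutation p = 0.0454, adjusted p = 0.585). Psmb9 had r = -0.142 with the same list, and the interferon-induced list had r between -0.00060 and 0.313 with the 9 genes. That range was not stable. Without the 2 arrays farthest in the interferon-induced mean, r ran from -0.539 with Psme2 to 0.070 with Tapbp, and only Tapbp stayed positive.

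The 8 genes outside the group whose values followed its mean profile most closely within groups, of 10240 scanned, had Pearson r from 0.830 to 0.874. They were Pck2, a mitochondrial enzyme that makes phosphoenolpyruvate (0.874), the natriuretic peptide Nppa (0.863), the metalloproteinase inhibitor Timp2 (0.844), Smim30l1 (0.840), Rprm (0.836), Cnpy2 (0.832), the splicing factor U2af1 (0.830) and Khdc4 (0.830). None of the 8 is in any of the lists used here. With so many genes scanned over 15 arrays, values of this size are a description of a ranking and have no test.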

How the data were processed

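Total RNA (25 ng per rat) was amplified in 2 cycles, biotin-labelled and hybridised to Affymetrix arrays, per the labels' protocols. The authors deposited log2 values made with RMA, per the submitters' processing notes, which corrects background, equalises the arrays' distributions and gives 1 value per probe set. The sources used here name neither the software version nor scan batches. Signal over background is not known, and the number of arrays limits the precision.

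Symbols came from GEO's platform annotation: 20826 probe sets had 1 symbol, 436 several and 9780 none. Probe sets at or above the 40th percentile entered a two-sided limma 3.58.1 fit without covariates (R 4.3.3; lmFit and eBayes), with Benjamini-Hochberg adjustment over 18625 and a threshold of 0.05. The fit was tested on simulated data. Correlations used 100000 two-sided permutations within groups (numpy 2.4.6, Python 3.11.15).

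The members, lists and motifs were chosen with earlier results of these data known, the motifs after these values were seen. Named are all member probe sets, called or smallest-p genes of each list, the 8 most alike genes and tissue checks.

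Ethanol and water rats share 7 numbers. Same-numbered rats' deviations correlated from -0.415 to 0.295, with 4 of 7 over 0.1. The main fit did not treat numbers as pairs, and whether they mark pairs was not settled. The alternatives were no filter, the 60th percentile, a replicate block, array weights, trended eBayes, median centring, a microglia covariate and single arrays left out.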

Additional observations from a re-analysis of the deposited data

How the results depend on the processing

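Every member difference kept its sign in every fit run except that of Tapbp with the microglia covariate. The 3 member calls became 0 with no filter, 1 with the replicate block, 0 with the microglia covariate and 4 with array weights. They became 0 without water rats 7 and 8 (chosen after seeing the data), and 0 to 4 with 1 array left out. At the 60th percentile there was 1 call. There Psmb8, Psmb9, Tap2, Tapbp and Irf1 lay below the filter and were not tested, while Psme1 kept its call. With trended, robust eBayes 3 were called, but Irf1 lost its call and the brighter B2m probe set gained one. Over the array the 173 calls became 59 with the replicate block (19 higher), 416 with the microglia covariate (31 higher), and 100 to 180 with 1 array left out, the lowest being 100 without ethanol rat 7 and 102 without ethanol rat 8. The 14 calls over all fixed lists became 8 with no filter, 9 at the 60th percentile, 4 with the replicate block, 8 without water rats 7 and 8, and 7 to 14 with 1 array left out. Against 8 microglia and 4 oligodendrocyte calls, the replicate block gave 4 and 0, the 60th percentile gave 5 and 4, and no filter gave 6 and 2. At the 60th percentile Ptprc, both Trem2 probe sets, Irf8 and Lgals3bp lay below the filter, so their calls could not be counted there. The count of member pairs passing was 0, and 1 with the microglia mean removed. The cause was not tested. Water rat 3 adds nothing in the block fit, and 1 of 7 ethanol rats correlated best with its own number. Whether same-numbered rats share a factor behind the lower counts of the block fit was not tested.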

Other observations

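The class II pathway, which presents peptides from outside the cell, had no called probe set among 7 tested by limma, with 1 at an unadjusted p below 0.05. That was Cd74, the invariant chain that guards the class II groove, at 8.20 ± 0.72 log2 units with ethanol (SD, n = 7) and 7.28 ± 0.57 with water (SD, n = 8) (log2 0.92, SE 0.30, limma adjusted p = 0.198). Its spread between rats was wider in both groups than that of any of the 10 immunoproteasome and processing probe sets tested. RT1-DMb, which helps load class II molecules, was at 0.16 (limma adjusted p = 0.435) and the lysosomal thiol reductase Ifi30 at 0.12 (limma adjusted p = 0.465). Of 10 markers of blood and border myeloid cells on the array, 3 passed the filter on dim signal and 0 were called by limma, with Plac8 at 0.41 and Lyz2 at 0.15 among 2 with an unadjusted p below 0.05, and haemoglobin beta (Hbb) at -0.17. The water mean of Plac8 was 6.85, below the filter value of 6.94, so it entered the fit only through its ethanol values.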
